A study of Arabidopsis thaliana with 24 samples.

Results

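The 6 Arabidopsis thaliana genes for the enzymes that make and break down proline were examined in leaf transcriptomes. They were P5CS1 (AT2G39800), P5CS2 (AT3G55610) and P5CR (AT5G14800) on the side of synthesis, and ProDH1 (AT3G30775), ProDH2 (AT5G38710) and P5CDH (AT5G62530) on the side of breakdown. They were chosen by function and locus identifier, and all 6 were among the 22279 genes in the count files. Leaves of 3-week-old plants of 4 genotypes were painted for 4 h with 10 uM abscisic acid (ABA) or with a mock of water and DMSO, both holding 0.01% Silwet L-77, and 3 biological replicates per combination gave 24 libraries in 8 groups. WT was the wild type, and the other 3 genotypes were h2a.z null plants, which lack the histone variant H2A.Z, expressing an altered copy of one of its genes, HTA11. In Delta28 the protein had lost its 28 N-terminal residues, in K>R 1-9 the 9 lysines of the N-terminal tail were arginines, and in K>R 3 only the third of them, residue 13, was. Since the labels name no null plants rescued with intact HTA11, WT and mutant lines differ by more than the tail, and the effects of these differences cannot be told apart. Plants were grown on soil or on MS plates, per the labels, which do not say which for each sample.

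Proline accumulates in plants under drought and salt stress, where it acts as a compatible solute. It is made from glutamate in the cytosol and plastids: P5CS, the rate-limiting enzyme, yields pyrroline-5-carboxylate (P5C), which P5CR reduces to proline. In mitochondria ProDH oxidises proline back to P5C and P5CDH returns P5C to glutamate. P5CS1 is known as the stress- and ABA-inducible copy and P5CS2 as the housekeeping copy, while ProDH1 is known to be repressed by water stress and induced by proline and by low energy.

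The sequences just upstream of the annotated starts are shown for the stress-inducible synthesis gene and the 3 breakdown genes, because the known control of ProDH genes acts through a short promoter element. They are the 250 bases before each start in the RefSeq annotation of TAIR10.1, 5′ to 3′ in the direction of the gene: P5CS1 at chr2:16603320-16603569 on the minus strand, ProDH1 at chr3:12451557-12451806 on the minus strand, ProDH2 at chr5:15500876-15501125 on the plus strand and P5CDH at chr5:25103313-25103562 on the minus strand. Capitals mark ACTCAT, the core bound by group S1 bZIP factors in ProDH promoters, or ACGTG, the core of the ABA-responsive element, on either strand.
P5CS1: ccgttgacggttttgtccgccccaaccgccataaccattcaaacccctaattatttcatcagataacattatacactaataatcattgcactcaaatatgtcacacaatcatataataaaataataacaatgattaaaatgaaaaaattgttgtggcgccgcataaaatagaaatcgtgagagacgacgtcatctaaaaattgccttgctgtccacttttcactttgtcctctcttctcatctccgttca
ProDH1: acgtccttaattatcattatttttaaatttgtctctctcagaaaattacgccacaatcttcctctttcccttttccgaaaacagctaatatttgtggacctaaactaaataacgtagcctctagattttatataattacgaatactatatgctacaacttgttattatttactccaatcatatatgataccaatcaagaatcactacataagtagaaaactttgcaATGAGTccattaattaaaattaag
ProDH2: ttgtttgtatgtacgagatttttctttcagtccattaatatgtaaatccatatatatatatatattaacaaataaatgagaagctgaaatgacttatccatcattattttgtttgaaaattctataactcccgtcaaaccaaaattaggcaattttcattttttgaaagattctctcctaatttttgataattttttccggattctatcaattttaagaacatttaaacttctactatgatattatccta
P5CDH: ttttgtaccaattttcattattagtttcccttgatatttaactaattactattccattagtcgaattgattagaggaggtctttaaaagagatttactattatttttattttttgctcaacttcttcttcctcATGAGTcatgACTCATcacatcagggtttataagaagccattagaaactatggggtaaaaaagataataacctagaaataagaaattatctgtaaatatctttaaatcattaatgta
ProDH1 held 1 ACTCAT, on the reverse strand from -24 to -19, where -1 is the last base before the start. P5CDH held 2, on the reverse strand from -117 to -112 and on the forward strand from -107 to -102. No capitals appear in the windows of P5CS1 and ProDH2. Of the other members, P5CR held 1 ACGTG and P5CS2 neither core. In all 27443 promoters of this length, ACTCAT occurred at least once in 12.3% and 2 or more times in 1.02%, and ACGTG occurred in 22.9%. These matches describe the letters in the windows and say nothing of binding.

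The 24 libraries held between 1565518 and 15086279 counts each (median 7142427). Levels are given as CPM, the expected count of a gene scaled by the total of its library. The gene models behind the files lacked the exon of lowest coordinate, which for a minus-strand gene is the exon with the 3′ end, where the assay places its reads. Of the members, ProDH2 alone lies on the plus strand, so levels cannot be compared between members. P5CS1 lengths of 2529 to 2538 matched models that lost 85 bases, whereas ProDH1 lost 284, P5CR 417 to 419 and P5CDH 904. Counts per library were 571 to 18743 for P5CS1, 124 to 1560 for P5CS2 and 19 to 162 for P5CR. They were 2 to 70 for ProDH1, 20 to 915 for ProDH2 and 20 to 138 for P5CDH. The part of these counts in which members passed a test was not tested. HTA9, another H2A.Z gene, had at least 300.8 CPM in every WT library and at most 109 CPM in every mutant one. HTA11 had 393 to 914 CPM in K>R 1-9 and at most 10.3 CPM in WT and Delta28. The library labelled K>R 3 mock replicate 2 stood apart, with 870 CPM of HTA11, within the range of K>R 1-9, against 11.4 and 38.4 CPM in the other K>R 3 mock libraries and 5.87 to 21.2 CPM in K>R 3 ABA. Values without it are given beside the results or in a paragraph after them. Of the leaf markers, the 6 mesophyll genes summed to 8226 to 23660 CPM in mock libraries. The 3 root markers summed to at most 2.58 CPM in any library, with COBL9 and EXPA7 at 0 throughout, as was the epidermis marker PDF1.

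P5CS1 rose under ABA, by 4.03-fold on average over the 4 genotypes. In WT it stood at 534, 464 and 251 CPM in replicates 1, 2 and 3 of mock leaves and at 794, 1748 and 594 CPM in ABA leaves. In Delta28 the values were 260, 272 and 459 CPM in mock and 1111, 1037 and 991 CPM in ABA. The ABA libraries lay above the mock libraries in both genotypes, though narrowly in WT, where the highest mock and lowest ABA libraries were close. In K>R 1-9 P5CS1 had 375, 226 and 131 CPM in mock and 1180, 1809 and 1010 CPM in ABA. In K>R 3 it had 221, 176 and 149 CPM in mock and 455, 1050 and 1315 CPM in ABA. Mock and ABA libraries again did not overlap, so all 4 genotypes had every ABA library above every mock library. The share of genes of a mean of at least 1 CPM that did so was 16.2% in WT, 15.8% in Delta28, 13.8% in K>R 1-9 and 13.5% in K>R 3.

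**Figure D1:**
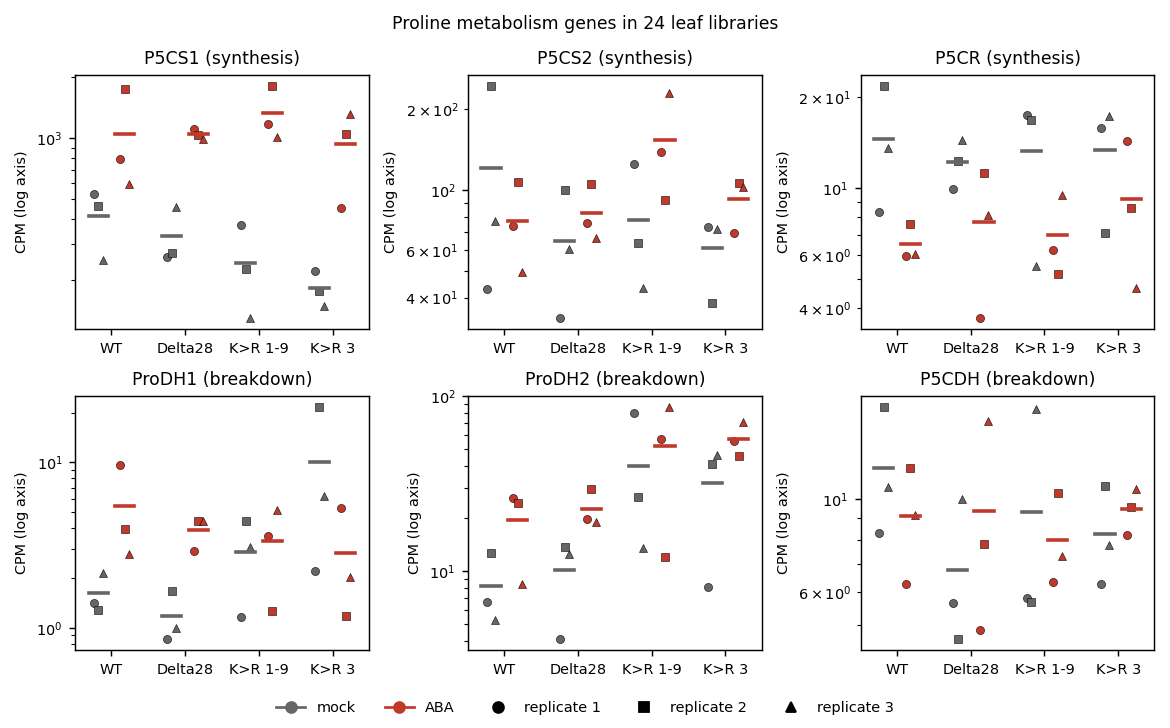
CPM on a log axis for the 6 genes, with 1 panel per gene, 1 symbol per library (shape, replicate number; grey, mock; red, ABA) and a bar at the mean of each group of 3. P5CS1 in ABA lies above mock in every genotype, the group means of ProDH2 are 31.8 to 57.2 CPM in the K>R lines and 8.24 to 22.8 CPM in WT and Delta28 with overlapping libraries, and the K>R 3 mock library at 21.6 CPM of ProDH1 is the highest of all 24.

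Group means of P5CS1 went from 416 ± 148 to 1045 ± 616 CPM in WT (SD, n = 3 here and below), from 330.2 ± 112 to 1046 ± 60.9 CPM in Delta28, from 244 ± 123 to 1333 ± 421 CPM in K>R 1-9 and from 182 ± 36.4 to 939.96 ± 441 CPM in K>R 3. The mean log2 fold change over the 4 genotypes was 2.01 (SE 0.23, adjusted p = 5.75e-07, by the quasi-likelihood test of edgeR adjusted by Benjamini-Hochberg over 13874 genes). Within genotypes it was called in 3 of 4: 1.75 in Delta28 (SE 0.45, adjusted p = 0.0126), 2.48 in K>R 1-9 (SE 0.46, adjusted p = 0.00244) and 2.46 in K>R 3 (SE 0.46, adjusted p = 0.00221). In WT the log2 fold change of 1.35 (SE 0.44, 95% interval 0.43 to 2.27) missed the threshold in edgeR at an adjusted p of 0.0775 and passed it in DESeq2 at 0.0352. Single libraries decided the call in WT and Delta28. Without WT ABA replicate 3 the WT change was called (adjusted p = 0.0441), while without WT ABA replicate 2 it was 0.77 (adjusted p = 0.442). Without Delta28 mock replicate 1 or 2 the adjusted p in Delta28 was 0.0698 or 0.0563. Without the library labelled K>R 3 mock replicate 2 the K>R 3 change was 2.40 (adjusted p = 0.0125).

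P5CS2, the housekeeping copy, did not pass the test under ABA in any genotype. WT mock leaves had 42.9, 244 and 76.8 CPM and WT ABA leaves 73.9, 108 and 49.6 CPM. Delta28 had 33.7, 100.4 and 60.6 CPM in mock and 75.6, 106 and 66.4 CPM in ABA. The shallowest library, WT mock replicate 2, held the highest P5CS2 value of all 24, and mock and ABA overlapped in both genotypes. K>R 1-9 had 125, 63.9 and 43.3 CPM in mock and 139, 91.8 and 229 CPM in ABA, and K>R 3 had 73.1, 38.2 and 72.1 CPM in mock and 69.7, 106 and 103 CPM in ABA. These groups overlapped too. The mean log2 fold change was 0.41 (SE 0.26, 95% interval -0.12 to 0.94, adjusted p = 0.206 in edgeR), and without WT mock replicate 2 it was 0.62 and called (adjusted p = 0.0334).

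P5CR, the last enzyme of synthesis, fell under ABA on average over the genotypes, opposite to P5CS1. In WT it had 8.31, 21.7 and 13.6 CPM in mock and 5.95, 7.58 and 6.03 CPM in ABA, with no overlap; 13.9% of genes had every WT ABA library below every mock library. Delta28 went from 9.94, 12.3 and 14.4 CPM to 3.73, 11.2 and 8.18 CPM. K>R 1-9 went from 17.4, 16.8 and 5.54 CPM to 6.24, 5.21 and 9.51 CPM, and K>R 3 from 15.8, 7.09 and 17.3 CPM to 14.3, 8.61 and 4.67 CPM. Mock and ABA overlapped in the 3 mutants. The mean log2 fold change was -0.76 (SE 0.24, adjusted p = 0.0144 in edgeR), and within single genotypes it lay between -1.05 and -0.53 with no call.

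ProDH1, the main proline dehydrogenase, gave the most divided picture, on low counts. In WT it had 1.42, 1.28 and 2.16 CPM in mock and 9.71, 3.94 and 2.78 CPM in ABA. In Delta28 it had 0.857, 1.67 and 1.00 CPM in mock and 2.89, 4.44 and 4.40 CPM in ABA. Every ABA library exceeded every mock library in these 2 genotypes, the direction in which P5CS1 also moved. The same held for 16.2% of genes of a mean of at least 1 CPM in WT and 15.8% in Delta28. In K>R 1-9 ProDH1 had 1.16, 4.41 and 3.09 CPM in mock and 3.57, 1.25 and 5.15 CPM in ABA. In K>R 3 it had 2.21, 21.6 and 6.27 CPM in mock and 5.33, 1.17 and 2.02 CPM in ABA. Mock and ABA overlapped in both K>R lines, and the 21.6 CPM came from the library labelled K>R 3 mock replicate 2.

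No ABA change of ProDH1 passed the test. The log2 fold changes were 1.64 in WT (SE 0.77, adjusted p = 0.221 in edgeR), 1.77 in Delta28 (SE 0.75, adjusted p = 0.116), 0.29 in K>R 1-9 (SE 0.72, adjusted p = 0.838) and -1.72 in K>R 3 (SE 0.73, adjusted p = 0.133). Without the library labelled K>R 3 mock replicate 2 the K>R 3 value was -0.57 (adjusted p = 0.679). The mean over genotypes was 0.50 (95% interval -0.26 to 1.26, adjusted p = 0.286). The 9 low-energy marker genes, which like ProDH1 are known to rise when sugar is short, summed to 1982 CPM in the library labelled K>R 3 mock replicate 2, the highest of all 24, against 323 and 424 CPM in the other K>R 3 mock libraries. The same sum was 224 to 297 CPM in Delta28 mock and 1235 to 1849 CPM in Delta28 ABA, and in WT it was 375 to 1081 CPM in mock and 963 to 1611 CPM in ABA. It was 331 to 1226 CPM in K>R 1-9 mock, 689 to 931 CPM in K>R 1-9 ABA and 275 to 680 CPM in K>R 3 ABA. The part of this difference in the ProDH1 values was not tested.

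ProDH2, the second proline dehydrogenase, rose under ABA on average over the 4 genotypes. WT had 6.68, 12.8 and 5.25 CPM in mock and 26.3, 24.4 and 8.48 CPM in ABA, and Delta28 had 4.11, 13.8 and 12.6 CPM in mock and 19.8, 29.5 and 19.2 CPM in ABA. The Delta28 ABA libraries all lay above mock, as for 15.8% of genes of a mean of at least 1 CPM. The WT libraries overlapped, through WT ABA replicate 3. K>R 1-9 had 79.8, 26.7 and 13.5 CPM in mock and 57.1, 12.1 and 86.4 CPM in ABA. K>R 3 had 8.11, 41.0 and 46.3 CPM in mock and 55.2, 45.2 and 71.2 CPM in ABA. Replicates of the K>R lines were widely spread and overlapped between treatments. The mean log2 fold change was 1.02 (SE 0.35, adjusted p = 0.0222 in edgeR), and it was not called without K>R 1-9 ABA replicate 3 (0.85, adjusted p = 0.0542). Within genotypes it lay between 0.43 and 1.40 with no call.

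P5CDH, which completes the return to glutamate, ranged from 4.64 to 16.6 CPM over the 24 libraries, and mock and ABA overlapped in every genotype. Its mean log2 fold change was 0.10 (SE 0.21, 95% interval -0.34 to 0.54, adjusted p = 0.736 in edgeR).

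**Figure D2:**
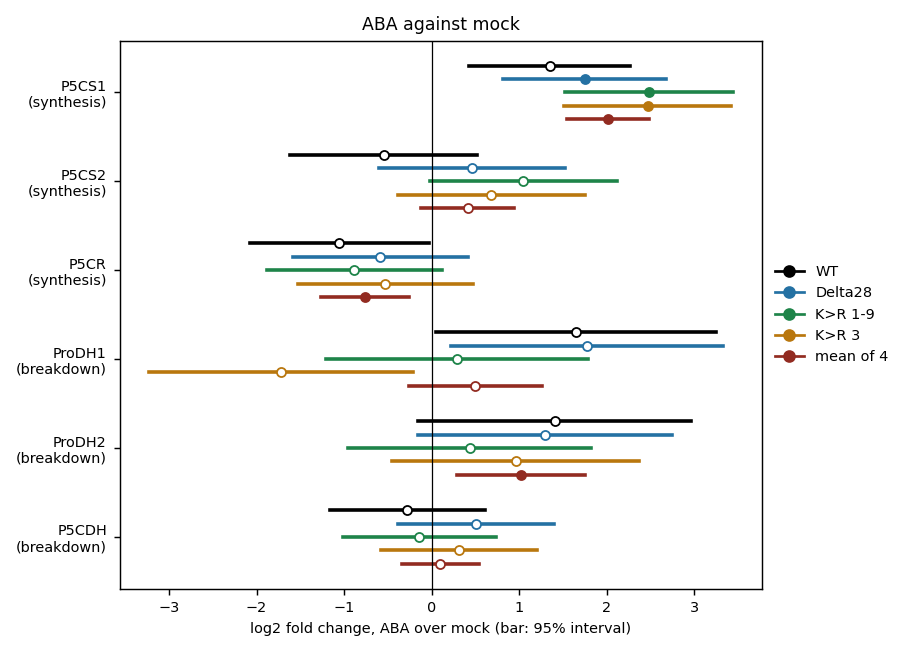
Log2 fold change of ABA over mock for each gene in each genotype and for the mean of the 4 (points, edgeR estimates; bars, 95% intervals; filled, adjusted p below 0.05). P5CS1 is the gene with filled points within single genotypes, and the mean of 4 is filled for P5CS1, P5CR and ProDH2.

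Counted over the members, edgeR called 3 of 6 in the mean ABA contrast, 2 higher and 1 lower, where 43.5% of all tested genes were called, 22% higher and 21.5% lower. Within genotypes it called 0 of 6 in WT, where 5.75% of all genes were called, and 1 of 6 in Delta28 (14.2% of all genes), in K>R 1-9 (9.31%) and in K>R 3 (10.8%). In WT, 2935 genes had an unadjusted p below 0.05, and DESeq2 called 1 member there, P5CS1. The median log2 fold change of the 3 synthesis genes was -0.55 in WT, 0.46 in Delta28, 1.05 in K>R 1-9 and 0.68 in K>R 3. The WT value is that of P5CS2, and without WT mock replicate 2 the WT median was 0.36. That of the 3 breakdown genes was 1.40, 1.29, 0.29 and 0.31, in the same order, and that of all genes lay between -0.05 and 0.00. The mesophyll markers fell with ABA in all 6 genes, to sums of 2785 to 11296 CPM, and in bulk leaf fewer cells of a type and less RNA per cell cannot be told apart. The 6 guard cell markers summed to 77.8 to 171 CPM in mock and 142 to 396 CPM in ABA (1 rose and 2 fell of 4 tested), and the 5 vascular markers to 84.7 to 194 CPM in mock and 166 to 301 CPM in ABA (2 rose). The part of these shifts in the members' values was not tested.

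Synthesis was set against breakdown as the log2 ratio of P5CS1 to ProDH1 counts within each library, whose size depends on the gene models and whose change between groups is given as a description. In WT it was 8.56, 8.50 and 6.86 in mock and 6.35, 8.79 and 7.74 in ABA. In Delta28 it was 8.24, 7.34 and 8.84 in mock and 8.59, 7.87 and 7.81 in ABA. Mock and ABA overlapped in both, and the mean moved by -0.35 in WT and by -0.05 in Delta28. In K>R 1-9 the ratio was 8.34, 5.68 and 5.40 in mock and 8.37, 10.49 and 7.62 in ABA, and the mean moved by 2.35. In K>R 3 it was 6.65, 3.03 and 4.58 in mock and 6.41, 9.80 and 9.34 in ABA, and the mean moved by 3.77, or by 2.91 without the library labelled K>R 3 mock replicate 2. The groups of both K>R lines overlapped as well, through 1 high mock library and 1 low ABA library in each. These stood at 8.34 and 7.62 in K>R 1-9 and at 6.65 and 6.41 in K>R 3.

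The log2 ratio of P5CS1 to ProDH2, which had more counts than ProDH1, was taken in the same way. Its mean moved by 0.043 in WT, 0.39 in Delta28, 2.18 in K>R 1-9 and 1.07 in K>R 3, or by 0.70 in K>R 3 without the library labelled K>R 3 mock replicate 2. In K>R 1-9 mock, at 2.23 to 3.27, and ABA, at 3.55 to 7.23, did not overlap, whereas the other 3 genotypes overlapped. P5CS1 by itself did not overlap in K>R 1-9 either, as for 13.8% of genes of a mean of at least 1 CPM, while ProDH2 overlapped. No share over all genes was taken for this ratio, which was added after the data were seen.

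**Figure D3:**
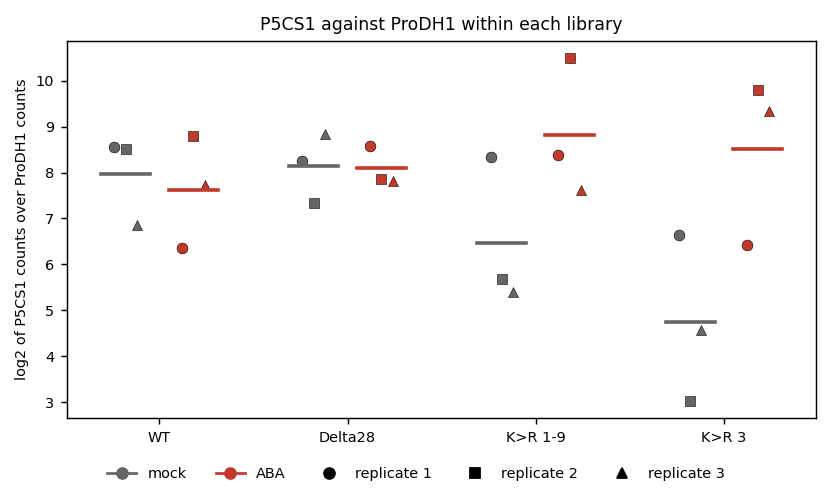
Log2 ratio of P5CS1 to ProDH1 counts within each library (shape, replicate number; grey, mock; red, ABA; bar, mean of 3). The means of WT and Delta28 are near each other in mock and ABA, and those of K>R 1-9 and K>R 3 are lower in mock, at 6.47 and 4.75, than in ABA, at 8.83 and 8.52.

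The mutants were compared with WT within each treatment. In mock leaves edgeR called 0 of 6 members in each line, where it called 0.159% of all genes in Delta28, 0.223% in K>R 1-9 and 0.00721% in K>R 3. Unadjusted p lay below 0.05 for 1232, 2006 and 1794 genes, and DESeq2 called 0, 1 and 0 members. The 1 was ProDH2 in K>R 1-9, at 40.0 ± 35.1 against 8.24 ± 4.00 CPM in WT, with a log2 fold change of 2.58 (SE 0.76, 95% interval 1.01 to 4.15) and an adjusted p of 0.129 in edgeR and 0.0203 in DESeq2. The 3 K>R 1-9 mock libraries lay above the 3 WT mock libraries, narrowly at 13.5 against 12.8 CPM, as did 6.08% of genes of a mean of at least 1 CPM. In K>R 3 mock ProDH2 differed from WT by 2.05 (SE 0.75, adjusted p = 0.312 in edgeR) and ProDH1 by 2.46 (SE 0.77, adjusted p = 0.278). Without the library labelled K>R 3 mock replicate 2 these were 1.84 (adjusted p = 0.538) and 1.30 (adjusted p = 0.600). P5CS1 differed by -1.21 in K>R 3 mock (SE 0.44, 95% interval -2.13 to -0.29, adjusted p = 0.312), with all 3 libraries below the lowest of WT, as for 10.1% of genes of a mean of at least 1 CPM, and by -0.62 in K>R 1-9 and by -0.25 in Delta28.

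In ABA leaves edgeR again called 0 of 6 members in each line, beside 0.115% of all genes in Delta28, 0.101% in K>R 1-9 and 0.00721% in K>R 3; 1116, 1587 and 1199 genes had an unadjusted p below 0.05, and DESeq2 called 0 members, giving no adjusted p for ProDH1 in K>R 3. P5CS1 in ABA differed from WT by 0.15 in Delta28, 0.52 in K>R 1-9 and -0.09 in K>R 3, with intervals reaching from -0.998 to 1.42 at most. ProDH2 differed by 0.37, 1.61 and 1.60, the last 2 with 95% intervals of 0.17 to 3.05 and 0.17 to 3.04. With the 3 mutants as 1 group against WT over both treatments, edgeR called 0 of 6 members and 1.7% of all genes, with 2413 at an unadjusted p below 0.05. ProDH2 differed there by 1.45 (SE 0.45, 95% interval 0.52 to 2.38), with an adjusted p of 0.0929 in edgeR and 0.0175 in DESeq2, the 1 member that DESeq2 called. P5CS1 differed by -0.25 (95% interval -0.77 to 0.26) and ProDH1 by 0.19 (95% interval -0.72 to 1.10).

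**Figure D4:**
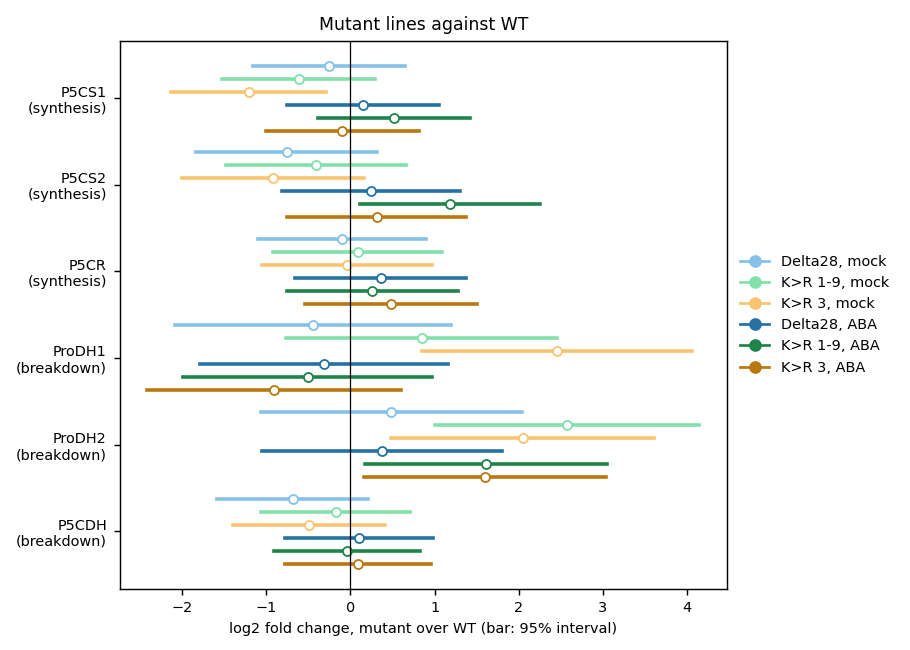
Log2 fold change of each mutant line over WT in mock leaves (light colours) and ABA leaves (dark colours) for the 6 genes (points, edgeR estimates; bars, 95% intervals; no point passed an adjusted p of 0.05). The estimates of ProDH2 in both K>R lines lie to the right of 0 in mock and ABA, and ProDH1 in K>R 3 changes side between the treatments.

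The test of whether the ABA response itself differed between genotypes called 0 members and 0% of all genes in each of the 6 pairs of genotypes in edgeR, with 445 to 600 genes at an unadjusted p below 0.05 and 0 to 2 genes called by DESeq2. The P5CS1 response exceeded that of WT by 0.40 in Delta28 (95% interval -0.88 to 1.68), 1.13 in K>R 1-9 (-0.15 to 2.42) and 1.12 in K>R 3 (-0.17 to 2.40). The P5CS2 response exceeded that of WT by 1.00, 1.60 and 1.23, with a 95% interval of 0.08 to 3.11 in K>R 1-9. Without WT mock replicate 2 it did so by 0.073, 0.68 and 0.30, so the size of these differences rests on that library. The ProDH1 response differed from that of WT by 0.13 in Delta28, -1.35 in K>R 1-9 and -3.37 in K>R 3 (95% interval -5.56 to -1.17; unadjusted p = 0.00439 and adjusted p = 1.00 in edgeR), and by -2.21 in K>R 3 without the library labelled K>R 3 mock replicate 2. These contrasts share the WT libraries.

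**Figure D5:**
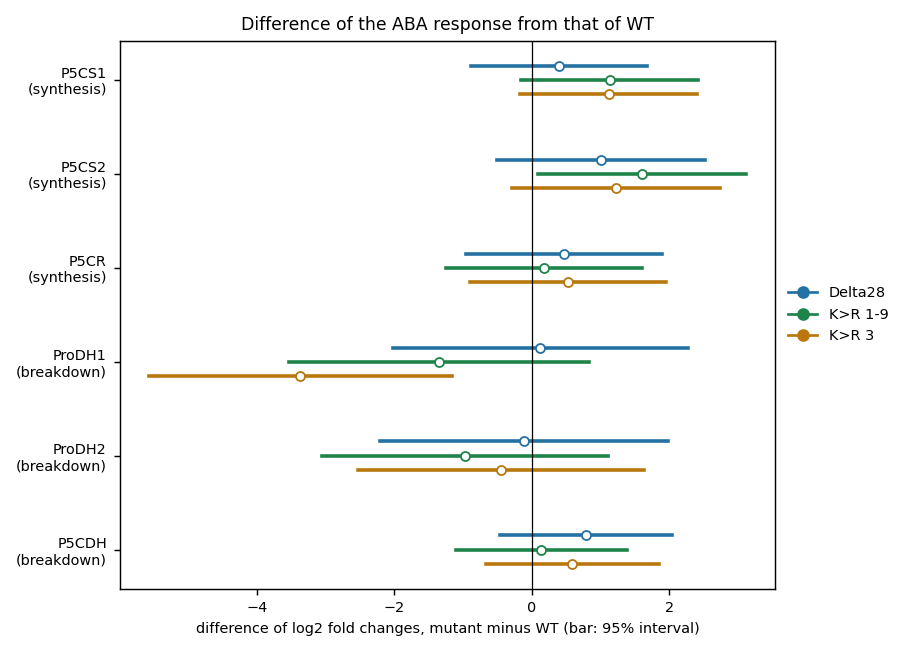
Difference of the log2 ABA response of each mutant line from that of WT for the 6 genes (points, edgeR estimates; bars, 95% intervals; no point passed an adjusted p of 0.05). The interval of ProDH1 in K>R 3 lies left of 0, that of P5CS2 in K>R 1-9 lies right of 0, and those of P5CS1 span 0 in all 3 lines. All 24 libraries entered these estimates, the library labelled K>R 3 mock replicate 2 and WT mock replicate 2 included.

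Without the library labelled K>R 3 mock replicate 2 the mean ABA contrast gave 1.98 for P5CS1, -0.85 for P5CR (adjusted p = 0.00669 in edgeR) and 1.05 for ProDH2 (adjusted p = 0.0258), all still called. P5CS2, ProDH1 and P5CDH had 0.33, 0.78 and 0.13 there and were not called. Within K>R 3, edgeR called 1109 genes in place of 1496 under ABA, and P5CS2, P5CR, ProDH2 and P5CDH stood at 0.40, -0.85, 1.13 and 0.49 with no call, which set the medians at 0.40 for synthesis and 0.49 for breakdown. Against WT, P5CS1 in K>R 3 was -1.17 in mock (adjusted p = 0.538) and -0.11 in ABA, and ProDH2 in ABA was 1.60. In the 3 mutants over both treatments ProDH2 was 1.41 (adjusted p = 0.118), P5CS1 -0.25 and ProDH1 -0.011. The response of K>R 3 minus that of WT was 1.07 for P5CS1 and 0.98 for P5CS2.

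Ranked by their means, the 8 groups gave no clear steps for any member: all 7 pairs of neighbouring groups overlapped in range for each of the 6 genes. The lowest mean of P5CS1 was that of K>R 3 mock and the highest that of K>R 1-9 ABA. For ProDH1 the lowest was Delta28 mock and the highest K>R 3 mock, whose mean of 10.0 CPM rests on the library labelled replicate 2; the others had a mean of 4.24 CPM, below WT ABA at 5.48 CPM. For ProDH2 WT mock was lowest and K>R 3 ABA highest.

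Genes around the pathway were read from lists of enzymes, transporters and regulators, with counts from the mean ABA contrast, in which 43.5% of all genes were called. Of 12 tested enzymes of ornithine, arginine and glutamate metabolism, 6 rose and 1 fell. The log2 fold changes were 1.69 for GLN1;3, a cytosolic glutamine synthetase, 1.47 for dOAT, the ornithine aminotransferase that feeds P5C from arginine breakdown, and 1.14 for GDH2, a glutamate dehydrogenase. Of 9 proline and related transporters, 4 rose and 1 fell. BAC2, a mitochondrial carrier of basic amino acids, rose by 4.47 (SE 0.40, adjusted p = 3.83e-08 in edgeR) and AAP1, an amino acid permease, by 1.17, and BOU, a mitochondrial carrier linked to glutamate, fell by 2.56. ProT1 and ProT2, proline transporters, rose by 0.53 and 0.63, and ProT3 had 0.70 without passing (adjusted p = 0.296).

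Of 9 tested transcription factors linked to P5CS1 or ProDH, 5 rose and 0 fell: ANAC055, a NAC factor, by 4.08 (SE 0.51, adjusted p = 2.35e-06 in edgeR), MYB2, an ABA-responsive MYB factor, by 2.88 (SE 0.25, adjusted p = 2.07e-08), and bZIP9, bZIP44 and bZIP10 by 0.81, 0.68 and 0.27. The 4 others of that list, bZIP1, bZIP2, bZIP11 and bZIP53, were not among the counted genes and could not be tested. Of 5 users of proline, P4H1, a prolyl 4-hydroxylase, rose by 0.71, while P4H2 and both prolyl-tRNA synthetases fell, the organellar one by 0.60. Of 9 low-energy markers, 5 rose and 0 fell, led by BGAL4, a beta-galactosidase, at 1.64, PGPD14 at 1.37 and TPS10, a trehalose-phosphate synthase-like gene, at 1.12. Within genotypes 5 of 9 were called higher in Delta28, 1 in WT and 0 in K>R 1-9 and K>R 3, with medians of 2.74, 0.59, 0.55 and -0.24. Of all genes, 14.2%, 5.75%, 9.31% and 10.8% were called in either direction, in the same order. All 6 ABA markers rose, from 1.61 for RD29A to 10.50 for LEA7.

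The genes whose pattern was most like that of P5CS1 over the 24 libraries, by the root mean square difference of centred log2 CPM, were SKP2A, CER1, AT1G21790, AT3G62550 and TLP6, at 0.50 to 0.53 against a median of 1.33 over all genes. CER1 takes part in the synthesis of wax alkanes, and SKP2A is an F-box protein. Those most like ProDH1 were PGIP1, STP1, BIK1, AT1G62790 and AT5G14120, at 0.69 to 0.71 against a median of 1.20. A gene flat over the 24 libraries would stand at 1.17 from P5CS1 and at 1.01 from ProDH1, below both medians. STP1 is a sugar transporter, BIK1 an immune receptor-like kinase and PGIP1 an inhibitor of fungal polygalacturonases. All 10 lie on the plus strand.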

How the data were processed

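RNA of 3-week-old leaves was profiled by QuantSeq FWD V2 3′ end sequencing in 24 libraries, 8 groups of 3, grouped by the genotype and treatment in the labels. Trimming, alignment and counting tools named in the submitters' processing notes were Trim Galore, STAR and RSEM. Not given in the sources used here were their versions, the build, the annotation and the strand setting. The deposited RSEM tables hold, per the file headers, expected counts (estimated reads per gene, not normalised), TPM values scaled by effective length, and lengths. The deposited TPM served as an alternative alone, because 3′ end reads do not grow with length.

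Genes were matched by locus identifier to the TAIR10.1 RefSeq annotation (22233 of 22279). In 11594 of 11675 genes with 1 transcript (99.3%) the deposited length equalled that of the transcript less the exon with the lowest coordinates, and 0 had full length. Minus-strand genes, 11061 in number, held 12.6% to 17.6% of the counts of a library, and 5 of the 6 members are among them. P5CS1 overlaps a gene on the opposite strand by 91 bases, P5CS2 by 32 and P5CDH, with SRO5, by 905.

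Expected counts were rounded. In edgeR 4.0.16 (R 4.3.3), filterByExpr kept 13874 genes, all 6 members included, TMM factors were 0.886 to 1.14, and all 24 libraries entered 1 quasi-likelihood fit of 8 group means (16 residual degrees of freedom). Calls are at a two-sided Benjamini-Hochberg adjusted p below 0.05 over all genes tested. A contrast named as a mean weights the 4 genotypes equally. SE is the log2 fold change over the square root of its F statistic. DESeq2 1.42.0, other scalings, no filter, a replicate block, the groups compared alone, and leaving out each library were alternatives. After the data were seen, leaving out both WT mock replicate 2 and the library labelled K>R 3 mock replicate 2, and minus-strand genes alone, were added, as was the ratio of P5CS1 to ProDH2. The fit was tested on simulated data. Every pair of libraries in a group differed by more than sampling noise.

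The members and gene lists were chosen with earlier results of these data known. The text names all 6 members, up to 3 called genes per list with the largest mean ABA change, and the 5 genes most like P5CS1 and ProDH1; others it names by list were chosen after their values were seen. Intervals cover the spread between these libraries, and at 3 counts the floor was 0.199 to 1.92 CPM.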

Additional observations from a re-analysis of the deposited data

How the results depend on the processing

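Over all values and their alternatives, 2651 alternatives were rated as unchanged and 30 fold changes changed sign, all in values that had not passed the test. For fold changes, unchanged meant the same direction and the same side of the threshold. For levels and ratios it meant a move within their SD, and for counts of called members a similar count. DESeq2 called 1 member in ABA against mock in WT, in K>R 1-9 against WT in mock and in the 3 mutants against WT, where edgeR called 0. Leaving out 1 library at a time gave 0 to 1 called members in WT and 0 to 1 in Delta28 under ABA. With both WT mock replicate 2 and the library labelled K>R 3 mock replicate 2 left out, P5CS2 under ABA in WT was 0.35 and ProDH1 in the 3 mutants against WT was -0.065. With library sizes scaled by TMM the mean level of P5CS1 in Delta28 ABA was 1110 CPM, outside the 1046 ± 60.9 CPM given above. With the deposited TPM, which is scaled by effective length, the log2 ratio of P5CS1 to ProDH1 was lower in all 8 groups. It was 7.59 against 8.09 in Delta28 ABA, 7.45 against 7.97 in WT mock and 8.00 against 8.52 in K>R 3 ABA. Delta28 ABA alone was rated as moved, and its SD of 0.43 was the smallest of the groups. The cause of the other changes was not tested.

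Leaving out 1 library at a time changed the sign of these log2 values. Under ABA they were P5CS2 in WT (-0.97 to 0.36), ProDH1 in K>R 1-9 (-0.17 to 0.72), ProDH2 in K>R 1-9 (-0.17 to 1.47), P5CDH in K>R 1-9 (-0.39 to 0.49) and P5CDH in the mean (-0.037 to 0.24). Against WT in mock it was P5CS1 in Delta28 (-0.59 to 0.014). Against WT in ABA they were P5CS1 in Delta28 (-0.16 to 0.67) and K>R 3 (-0.49 to 0.43), ProDH1 in Delta28 (-0.69 to 0.34) and K>R 1-9 (-0.97 to 0.17), and ProDH2 in Delta28 (-0.038 to 0.62). For the 3 mutants they were P5CS1 (-0.41 to 0.0045) and ProDH1 (-0.011 to 0.52). For the response minus that of WT they were ProDH1 in Delta28 (-0.23 to 0.79) and ProDH2 in Delta28 (-0.50 to 0.17) and K>R 1-9 (-1.56 to 0.087). The ABA minus mock change of the mean log2 ratio of P5CS1 to ProDH1, rated by its spread, also changed sign. It ranged from -0.93 to 0.29 in WT and from -0.45 to 0.30 in Delta28.

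Deviations from the group means were correlated between mock and ABA libraries of the same genotype. Same-numbered pairs had correlations from -0.16 to 0.27 (2 of 12 over 0.1), and different-numbered pairs from -0.22 to 0.18 (4 of 24 over 0.1). Libraries of different genotypes were not compared, so whether the numbers mark a shared batch was not tested. With the replicate block P5CS1 under ABA was 1.33 in WT (adjusted p = 0.0944 in edgeR) and 1.70 in Delta28 (adjusted p = 0.0177), and the block changed no call of a member.

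Over all genes, DESeq2 called 1277 against 798 in WT under ABA, 84, 342 and 77 against 22, 31 and 1 for the mutants in mock, 82, 181 and 46 against 16, 14 and 1 in ABA, and 654 against 236 for the 3 mutants. Leaving out 1 library gave 240 to 892 in WT under ABA, 888 to 2156 in Delta28, 532 to 1472 in K>R 1-9 and 529 to 1635 in K>R 3. For Delta28, K>R 1-9 and K>R 3 against WT it gave 4 to 29, 1 to 42 and 1 to 13 in mock and 2 to 22, 1 to 19 and 1 to 151 in ABA, and 40 to 383 for the 3 mutants. Depth limits ProDH1 most, which had 2 counts in WT mock replicate 2.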

Other observations

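SRO5 overlaps P5CDH tail to tail on the opposite strand, by 905 bases in TAIR10.1, and the pair is known in Arabidopsis for small RNAs formed from the overlap under salt stress. It was looked up after the values of P5CDH were seen. SRO5 lay between 34.5 and 41.9 CPM in WT mock and between 43.8 and 123 CPM in WT ABA. Every ABA library lay above every mock library in WT, Delta28 and K>R 1-9, and K>R 3 overlapped. Of genes of a mean of at least 1 CPM, 16.2% in WT, 15.8% in Delta28 and 13.8% in K>R 1-9 did so. The mean log2 fold change of SRO5 under ABA was 0.79 (SE 0.16, adjusted p = 0.000397 in edgeR), beside 0.10 for P5CDH. The P5CDH exon that the gene models lacked, at 25099003 to 25099906 on chromosome 5, spans nearly all of the overlap, which ends with SRO5 at 25099907. That stretch was thus not part of the counted P5CDH model. Whether reads of one gene were counted for the other was not tested.

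Within the K>R 1-9 mock libraries, and again within the K>R 1-9 ABA libraries, P5CS2 and ProDH2 placed the 3 replicates in the same order, from 43.3 CPM of P5CS2 and 13.5 CPM of ProDH2 up to 125 and 79.8 CPM in mock, and from 91.8 and 12.1 CPM up to 229 and 86.4 CPM in ABA. P5CR followed the same order in both treatments, P5CS1 in mock alone and ProDH1 in ABA alone, while P5CDH had another order in each. These orders were noticed after the values were seen and carry no test.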
